A study of Mus musculus with 2 samples.

Results

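The cells described here are CD8 T cells of the spleen with a virtual or central memory profile. They were selected on their own measured UMIs (unique molecular identifiers, which count captured RNA molecules), and 477 of the 14372 cells kept in both libraries met the rule. Cells with fewer than 500 genes, or with 10% or more of their UMIs from mitochondrial genes, were dropped first. A member then had at least 2 UMIs of Cd8a and Cd8b1 together, at least 2 of Ly6c2, at least 1 of Il2rb and none of Cd4, Foxp3, Cd79a, Gzma, Klrg1, Ifit3, Mki67 and Trdc. The levels of these genes are therefore a description of the selection.

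The study set T cells without the arginine methyltransferase PRMT5 beside control T cells in C57BL/6 mice, and profiled sorted CD3+ splenocytes with the 10x Genomics 3′ V3.1 chemistry. The CKO library came from mice titled Prmt5-CKO (CRE), in which CD4-Cre acts on the floxed gene PRMT5fl/fl. The control library came from mice titled Control (WT). The genotype field reads CD4-Cre+ PRMT5fl/fl for both samples, so the groups were taken from the titles, and whether the control mice carried Cre or the floxed alleles is not known from the labels. CD4-Cre is expressed from the double-positive thymocyte stage, so both CD4 and CD8 T cells pass through it. Each group was 1 library of 3 mice pooled, and no age is given. Without replicate libraries no p-value can be had, genotype and library cannot be told apart, and every interval below is an exact 95% interval that covers counting error only.

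Memory CD8 T cells persist without antigen and depend on IL-15, which they receive through the IL-2 receptor β chain (Il2rb, CD122). Central memory cells keep the lymph node homing receptor CCR7. Virtual memory cells of unprimed mice acquire the same phenotype from cytokine and self-recognition, under the transcription factor Eomes, and are known for high Ly6C and low CD49d (Itga4). PRMT5 places symmetric dimethyl marks on arginine residues of histones, Sm spliceosome proteins and other targets.

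The CKO library held 7896 barcodes with 52387620 UMIs and the control library 7407 barcodes with 48273424 UMIs. The cell filter removed 2.99% of CKO and 9.38% of control barcodes. The libraries shared 11 barcodes, of which 0 were CKO members and 1 was a control member. Members carried a median of 9026.5 UMIs in CKO (range 3699 to 18611) and 9322 in control (range 3534 to 34308), with 2271.5 and 2231 detected genes and 4.41% and 5.31% mitochondrial UMIs. Their sums were 1171198 UMIs in CKO and 3449098 in control, so the CKO sum limits the precision of most ratios. UMIs of Y-linked genes were found in 35.5% of CKO and 31.4% of control members.

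Memory CD8 cells formed a smaller share of the CD8 cells in the CKO library. They were 124 of 1483 CD8 cells in CKO (8.36%, Clopper-Pearson interval 7.0 to 9.89%) and 353 of 2026 in control (17.4%, 15.8 to 19.1%). The ratio was 0.480 (0.388 to 0.590), a share 2.08-fold lower in CKO. Of all kept cells they were 1.62% in CKO and 5.26% in control, 3.25-fold lower in CKO. CD8 cells as a whole were 19.4% of kept cells in CKO and 30.2% in control. Naive cells, gated alike but with no Ly6c2 or Il2rb UMI, were a larger share, at 44.0% of CKO and 33.9% of control CD8 cells. Effector CD8 cells, which carry a UMI of Gzma or Klrg1, were 4.32% in CKO and 3.36% in control, with a ratio of 1.29 (0.899 to 1.84). Shares are of sorted and captured cells, and say nothing of cell numbers per spleen.

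**Figure D1:**
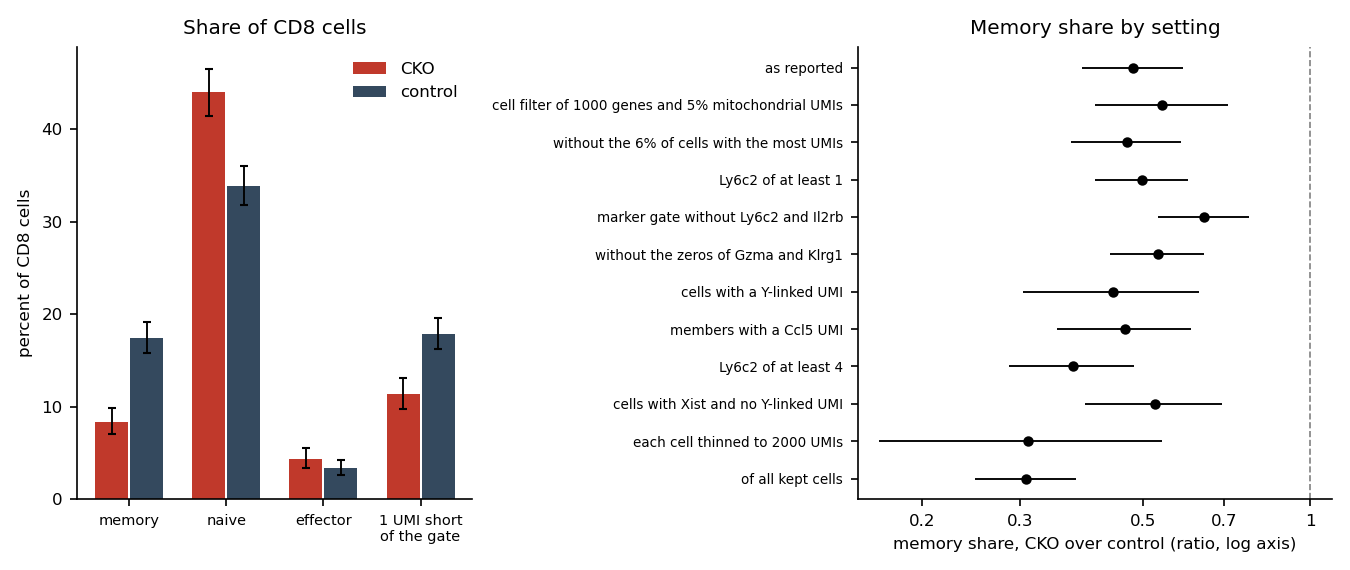
Left: percent of CD8 cells in each gate, with CKO bars left of control bars and exact 95% intervals. Right: the memory share in CKO over that in control (ratio, log axis, 95% interval) under each setting; the dashed line marks equal shares. The ratio was 0.480 as reported and lay below 1 in every setting shown.

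The share was also lower in CKO at equal depth and without the 2 genes that define the gate. Every cell was thinned to 2000 UMIs, with 59 CKO and 38 control cells of all types left out as shallower. Then 16 of 1200 CKO CD8 cells (1.33%) and 66 of 1534 control CD8 cells (4.30%) met the rule, a ratio of 0.310. A gate that used neither Ly6c2 nor Il2rb, but asked for at least 3 of Eomes, Nkg7, Ccl5, Ctla2a, Cxcr3 and Cd44, gave a ratio of 0.643 (the smallest gap of the settings tried). Cells just outside the rule, 1 UMI short of Ly6c2 or of Il2rb, were also a smaller share in CKO, at 11.3% of CD8 cells against 17.9% in control.

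The members of the CKO library also carried less Ly6c2 per cell, a gene of the gate, so this is a description. The median was 5 Ly6c2 UMIs per CKO member and 8 per control member. Members with 2 to 3 UMIs were 37.1% in CKO and 19.3% in control, and members with 10 or more were 32.3% in CKO and 43.9% in control. Raising the threshold to 4 UMIs accordingly widened the gap in share, to a ratio of 0.374. Il2rb had a median of 1.5 UMIs per CKO member and 2 per control member.

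Prmt5 itself (chromosome 14, 54507187 to 54517525, minus strand, mm10 coordinates from GENCODE vM21) was lower in the CKO members. Levels are given as CPM, a gene's share of all UMIs of the summed cells, scaled so that all genes add up to 1000000. Prmt5 was at 6.83 CPM in CKO (8 UMIs) and 20.6 CPM in control (71 UMIs). The log2 ratio was -1.59 (-2.86 to -0.54). It had a UMI in 6.45% of CKO members and 16.7% of control members, and after thinning in 2.42% and 2.83%, too near the level of 1 UMI to read a change from. Whether the remaining CKO UMIs come from an intact gene cannot be read from 3′ counts. Naive CD8 cells gave 4.18 CPM in CKO and 15.5 CPM in control, and effector cells 6.51 CPM from 3 UMIs and 9.52 CPM from 5 UMIs. Among members with at least 4 Ly6c2 UMIs the interval of the ratio, -2.45 to 0.08, reached past 0.

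The label was checked against markers the rule did not use. Ccl5, a chemokine of memory and effector CD8 cells, had a UMI in 58.1% of CKO members and 60.1% of control members. In naive CD8 cells it was found in 13.7% and 14.7%, and in carried-over B cells, which should lack it, in 15.0% and 5.0% (6 and 2 of 40 cells). The median depth was 6315 and 6260 UMIs in naive cells and 4229 and 4125.5 UMIs in B cells, below that of the members. After thinning to 2000 UMIs, the share with Ccl5 was 46.8% of CKO and 43.9% of control members, against 4.16% and 5.12% of naive cells and 10% and 2.56% of B cells (4 of 40 and 1 of 39). Eomes had a UMI in 22.6% of CKO members and 27.2% of control members and in 3.68% and 4.23% of naive cells, and in none of the 40 B cells of either library, which allows a share of up to 8.81%. Cxcr3, the receptor that guides memory cells to inflamed tissue, was found in 24.2% and 32.3% of members and in 1.53% and 0.875% of naive cells. Thinned, its share was 3.23% of CKO members and 11.05% of control members. Effector cells of CKO and control had Ccl5 in 82.8% and 58.8%, Eomes in 21.9% and 19.1% and Cxcr3 in 31.25% and 23.5%. Their intervals overlapped those of the members, except for Ccl5 in CKO, which was found in more of the effector cells. The memory label therefore fitted the summed members of both libraries when set beside naive and B cells, but these 3 markers did not separate it from the effector label. It was not uniform: of the 6 genes Eomes, Nkg7, Ccl5, Ctla2a, Cxcr3 and Cd44, at least 3 had a UMI in 59 CKO members (47.6%) and 204 control members (57.8%), and 0 or 1 in 34 (27.4%) and 74 (21.0%).

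Summed levels of the members were also set beside those of naive CD8 cells of the same library. Among 2182 genes compared, 8 were at least 2-fold higher in members in both libraries (0.367%) and 6 at least 2-fold lower in both (0.275%). A further 0 genes were past 2-fold higher in CKO alone and 2 in control alone, and 2 in each library alone were past it lower. Since the gate chose the cells, these are descriptions. Ccl5 (chromosome 11, 83525778 to 83530518) led, with 2108 CPM in members and 88.0 CPM in naive cells of CKO. In control it was at 1821 CPM in members and 76.0 CPM in naive cells, and the log2 ratio was 4.58 in each library. Ctla2a, a cathepsin inhibitor, followed, at 297 against 25.5 CPM in CKO and 291 against 26.6 CPM in control. Hopx, a homeobox cofactor, had memory over naive log2 ratios of 1.85 in CKO and 2.23 in control. Pglyrp1, a peptidoglycan recognition protein, had 1.89 and 1.68, Ms4a4c had 1.64 and 1.86, and S100a6 had 2.98 and 2.87. Ahnak, Sidt1, Tm6sf1, Ifngr1 (a chain of the interferon γ receptor), Dusp5 and Prr13 followed, with log2 ratios of 0.83 to 1.30 in CKO and 0.90 to 1.89 in control.

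Genes lower in members than in naive cells included the gut homing receptor Ccr9, at 29.0 against 141 CPM in CKO and 20.3 against 147 CPM in control. Rgcc, a regulator of cell cycle progression, was at 45.3 against 184 CPM in CKO and 82.9 against 290 CPM in control. Actn2 and Ramp1 followed, with log2 ratios of -1.75 and -1.52 in CKO and -1.95 and -1.74 in control. Igfbp4, a secreted binder of insulin-like growth factors that marks naive T cells, was lower in members too, by log2 -0.91 in CKO and -1.44 in control.

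Further markers of the state set the members beside naive and effector cells. Itga4 (CD49d) was at 131 CPM in CKO and 97.1 CPM in control members, below the naive cells (192 and 170 CPM) and the effector cells (454 and 228 CPM) of the same library. Tcf7, the factor of memory self-renewal, was at 227 and 266 CPM, with naive cells at 290 and 300 CPM. Nkg7, a granule protein, does not separate the gates by itself: it had a UMI in 97.6% and 96.9% of members but also in 81.6% and 84.4% of naive cells.

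**Figure D2:**
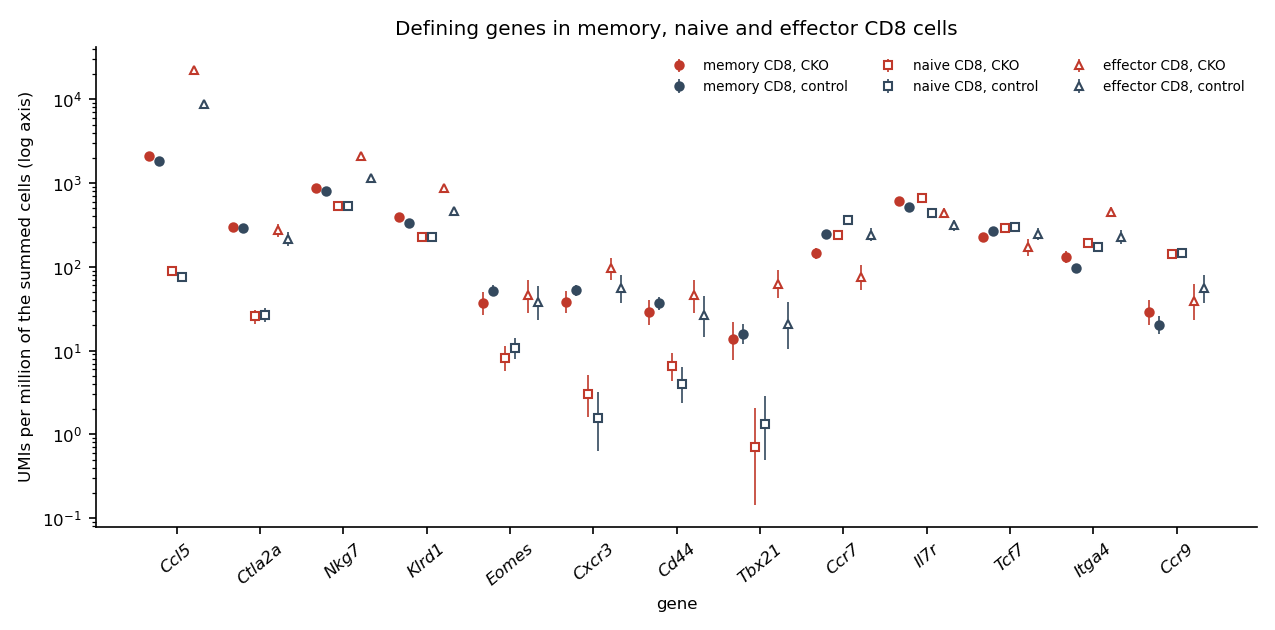
Summed level in CPM (log axis) of 13 defining genes in memory (filled circles), naive (open squares) and effector (open triangles) CD8 cells, with CKO in red left of control in dark blue and exact Poisson 95% intervals. Ccl5 and Ctla2a stand at least an order of magnitude above naive cells in both libraries, while Ccr9 stands below them.

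Ratios within the members were then taken for the 2141 genes whose mean over both libraries reached 50 CPM, with the genes of the gate left out. Of these, 101 were at least 1.5-fold higher in CKO (4.72%) and 27 at least 1.5-fold lower (1.26%). Counts past 1.5-fold in the gene groups below are to be read beside these shares. The median gene had a log2 ratio of 0.10, with 1390 genes above 0 and 751 below. The excess of higher over lower genes depends on this shift: with ratios centred on the median gene, 57 were higher and 49 lower. Gene group medians given below near 0 also changed sign with the scaling or with the cells taken. Over all alternatives run on the groups, the medians of the terminal effector, p53, immediate early, Sm, class I, cell cycle, glycolysis, respiratory chain and ribosomal groups kept their sign, and those of the other groups of several genes did not. Of the 101 higher genes, 48 were under 50 CPM in control and so passed the level filter through CKO alone, and of the 27 lower genes 3 were under it in CKO. In naive CD8 cells 1.63% of 2268 genes were at least 1.5-fold higher in CKO and 0.529% lower, around a median of 0.05. Of the 101 genes higher in members, 83 passed the level filter in naive cells and so could be counted there, and 25 were past the same fold. All 27 lower genes passed that filter, and 8 were past the fold in naive cells too. Both sets come from the same libraries.

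Lck, the Src family kinase bound to the CD8 coreceptor, had the highest ratio. It stood at 1312 CPM in CKO and 419 CPM in control members, a log2 ratio of 1.65 (1.54 to 1.75), with a UMI in 124 of 124 CKO members and 343 of 353 control members. The gene lies on chromosome 4, 129548344 to 129573641. It was higher across all 3 gates, by log2 1.38 in naive and 1.01 in effector cells. No single member carried it: the member with the most Lck UMIs held 2.54% of them in CKO and 0.692% in control.

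At the other end stood Cxcr4, the receptor for the bone marrow and stromal chemokine CXCL12 (chromosome 1, 128588199 to 128592293). It was at 82.8 CPM in CKO and 185 CPM in control members, a log2 ratio of -1.16 (-1.48 to -0.85), and 46.8% of CKO against 72.8% of control members had a UMI of it. Naive cells gave -0.82 and effector cells -0.70. Cd28, the main costimulatory receptor (chromosome 1, 60716800 to 60773359), was at 135 CPM in CKO and 275 CPM in control, a log2 ratio of -1.03 (-1.28 to -0.78). Among CKO members 58.9% had a UMI of it, against 83.9% of control members. In naive cells its ratio was -0.50 (-0.63 to -0.36), an interval that does not overlap that of the members. The genes of largest ratio, here and below, were picked on the members and not on naive cells. How many of all genes lacked such overlap was not counted, and a difference between the gates was not tested.

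Other genes of receptor signalling were mixed. Of 26 in the list, 23 passed the level filter, 13 were higher and 10 lower, with a median of 0.05 that is below that of all genes. Lck was the 1 gene past 1.5-fold higher, and Cd28 and Malt1 the 2 past it lower. Malt1, the paracaspase that relays receptor signals to NF-κB, was at 69.2 CPM in CKO and 130 CPM in control (log2 -0.92, -1.28 to -0.57). Ptpn22, a phosphatase that restrains Lck, was at 154 and 217 CPM (-0.50, -0.74 to -0.26). Cd3e was at 440 and 532 CPM, and Zap70 at 104 and 110 CPM with an interval of -0.39 to 0.21. Nfatc2, under the level filter, was at 9.39 CPM in CKO from 11 UMIs and 24.1 CPM in control (-1.36).

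**Figure D3:**
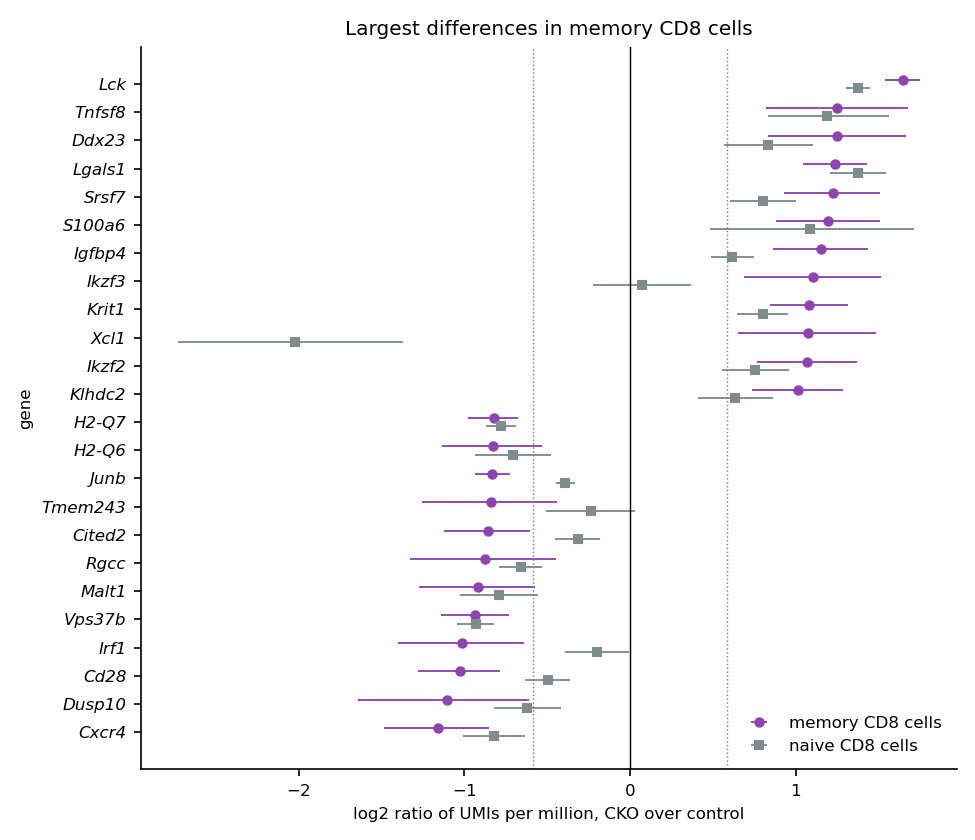
Log2 ratio of CPM, CKO over control, with 95% intervals, for the named genes of memory CD8 cells, 12 higher and 12 lower in CKO (circles), beside naive CD8 cells (squares); dotted lines mark 1.5-fold. Lck is at 1.65 and Cxcr4 at -1.16 in members, and Xcl1 lies on opposite sides of 0 in the 2 gates.

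The remaining genes of largest ratio were chosen by the rank of their ratio in members, not in naive cells. Those higher in CKO were Tnfsf8 (the ligand of CD30), Ddx23 and Srsf7 (splicing factors), Lgals1 (galectin-1), S100a6, Igfbp4, the Ikaros family factors Ikzf3 and Ikzf2, Krit1, Xcl1 and Klhdc2. Their log2 ratios ran from 1.01 for Klhdc2 to 1.25 for Tnfsf8 and Ddx23. Tnfsf8 was at 72.6 CPM in CKO and 30.4 CPM in control members, and in naive cells at 47.1 and 20.6 CPM. Srsf7 was at 154 CPM in CKO and 65.8 CPM in control (1.22, 0.93 to 1.51), with a ratio of 0.80 in naive cells. Ikzf3 (Aiolos) was at 74.3 and 34.5 CPM in members (1.11, 0.69 to 1.52) but 44.3 and 42.1 CPM in naive cells (0.07, -0.22 to 0.37), so these intervals do not overlap.

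Those lower in CKO, after Cxcr4 and Cd28, were the phosphatase Dusp10, the interferon regulatory factor Irf1, Vps37b, Malt1, Rgcc, Cited2, Tmem243, the AP-1 factor Junb and the class I genes H2-Q6 and H2-Q7. Irf1, which drives class I genes, was at 58.9 CPM in CKO and 119 CPM in control members (log2 -1.01, -1.40 to -0.64). Naive cells gave 94.9 and 109 CPM (-0.20), and its interval began at -0.39, again without overlap with that of the members. Vps37b, an endosomal sorting protein, was at 196 and 375 CPM (-0.93) and had the same ratio in naive cells. H2-Q6 and H2-Q7 are near-identical copies, so how the counting divided reads between them is uncertain.

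Summed over all members, the program of memory cells itself differed little at its median. Of 19 genes in the list besides the gate, 7 passed the level filter, with 6 higher, 1 lower and 1 past 1.5-fold. The median of 0.21 was 0.11 after centring, and -0.04 over the 11 genes that passed when totals left out mitochondrial and ribosomal protein genes. Ccl5 was at 2108 CPM in CKO and 1821 CPM in control (log2 0.21, 0.14 to 0.28). Nkg7 was at 867 and 798 CPM, and Ctla2a at 297 and 291 CPM (0.03, -0.15 to 0.21). The killer lectin chain Klrd1 (CD94) was at 391.9 and 329 CPM (0.25, 0.09 to 0.41), and the granule protease Ctsw at 282 and 215 CPM (0.39, 0.20 to 0.58). The ratios varied with Ly6c2. Ccl5 had 0.45 at 2 to 3 Ly6c2 UMIs, 0.06 (-0.06 to 0.17) at 4 to 9 and 0.62 (0.52 to 0.71) at 10 or more. Over the same bands, Ctla2a had -0.15, -0.11 and 0.38 (0.15 to 0.60), and Nkg7 had 0.06, 0.12 and 0.26.

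The transcription factors and receptors that define the state had lower values in CKO, most with intervals across 0, and all 4 lay under the level filter of 50 CPM. Eomes was at 36.7 CPM in CKO and 51.9 CPM in control (log2 -0.50, -1.01 to -0.01). Cxcr3 was at 38.4 and 52.2 CPM (-0.44, -0.95 to 0.04), Cd44 at 29.0 and 36.5 CPM (-0.33, -0.92 to 0.22) and Tbx21 (T-bet) at 13.7 and 16.0 CPM (-0.22, -1.13 to 0.60). These levels differ between members with few and many Ly6c2 UMIs, of which CKO and control had different shares. Eomes was at 29.2 CPM in CKO and 31.6 CPM in control at 2 to 3 Ly6c2 UMIs. It was at 27.2 and 44.0 CPM at 4 to 9 (log2 -0.70, -1.90 to 0.33), and at 49.7 and 65.1 CPM at 10 or more. Its interval crossed 0 in each band. The part of this makeup in the ratios was not tested.

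Xcl1, a chemokine that attracts cross-presenting dendritic cells, was the memory gene past the fold, at 72.6 CPM in CKO and 34.5 CPM in control members (log2 1.07, 0.65 to 1.49). It was found in 20 CKO and 49 control members, and the top member held 20% of the CKO UMIs and 26.9% of the control UMIs. Among members with a Ccl5 UMI the ratio was 0.049 (-0.68 to 0.73). In naive cells it was at 5.57 CPM in CKO and 22.6 CPM in control, from only 7 of 652 and 11 of 686 cells, whose shares of 1.07% (0.433 to 2.20%) and 1.60% (0.803 to 2.85%) have overlapping intervals. The top naive cell held 33.3% of the CKO UMIs and 44.1% of the control UMIs.

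Genes shared by naive cells and memory precursors were split. Of 20 in the list, 19 passed the filter, 10 higher and 9 lower, with a median of 0.05. Ccr7, the receptor for lymph node chemokines, was at 145 CPM in CKO and 248 CPM in control members (log2 -0.77, -1.02 to -0.53), had a UMI in 66.1% and 76.5% of them, and was lower in naive cells as well (-0.58). Klf2, which maintains expression of the egress receptor S1pr1, was at 851 and 1219 CPM (-0.52), and Foxo1, its upstream regulator, at 77.7 and 109 CPM (-0.48, -0.83 to -0.15). S1pr1 itself had an interval across 0 (-0.44 to 0.07). On the other side stood Igfbp4, at 152 CPM in CKO and 68.4 CPM in control (1.15, 0.86 to 1.44), Id3, at 95.6 and 48.4 CPM (0.98, 0.62 to 1.34), and Il7r, the IL-7 receptor, at 617 and 523 CPM (0.24, 0.11 to 0.37).

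Of 26 chemokines, homing receptors and integrins, 12 passed the filter, 6 higher and 6 lower, with Xcl1 past 1.5-fold higher and Cxcr4 and Ccr7 past it lower. Under the filter, the chemokine Ccl4 was at 17.1 CPM in CKO and 41.8 CPM in control (log2 -1.29, -2.04 to -0.61), with UMIs in 9 and 44 members.

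Of 31 transcription factors of CD8 memory and effector fate, 17 passed the filter, 8 higher and 9 lower. Past 1.5-fold, 4 were higher and 2 lower, where 4.72% and 1.26% of all genes were. Summed over all members, both E-protein inhibitors were higher in CKO, Id3 and Id2. The second was at 232 CPM in CKO and 142 CPM in control members (log2 0.71, 0.49 to 0.92). Ikzf2 (Helios) was at 136 and 64.7 CPM (1.07). The 2 lower factors were Irf1 and Klf6, at 250 and 391 CPM (-0.64, -0.83 to -0.46).

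Cytotoxic genes, with Gzma and Klrg1 at 0 by the rule, had a median of 0.08 over the 8 that passed of 21. Of these, 5 were higher and 3 lower, none past 1.5-fold. The median was 0.28, with 8 higher and 1 lower, when cells with Gzma or Klrg1 were let in. It was 0.005 with at least 4 Ly6c2 UMIs. Under the level filter, Fasl, the ligand of the death receptor Fas, was at 5.98 CPM in CKO (7 UMIs) and 14.8 CPM in control (log2 -1.31, -2.69 to -0.16). Gzmb, at 31.6 and 18.6 CPM, came from 5 CKO and 15 control members, and 1 member in each library held 51.4% and 48.4% of its UMIs.

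Of 20 genes that mark terminal effectors, 8 passed the filter, and 12 were too low to be measured. Among the 8, 7 were higher and 1 lower, with 5 past 1.5-fold higher, where 4.72% of all genes were. Their median was 0.60 (0.22 over 6 in naive cells), and it ranged from 0.34 in cells with a Y-linked UMI to 0.91 when cells with Gzma or Klrg1 were let in. Lgals1 was at 338 CPM in CKO and 143 CPM in control members (log2 1.24, 1.04 to 1.43). It was higher in naive cells too, by log2 1.38. One CKO member held 22.2% of its UMIs, and without the top member of each library the ratio was 0.94 (0.73 to 1.15). S100a10 was at 701 and 457 CPM (0.62, 0.49 to 0.74) and was found in 98.4% and 95.5% of members. S100a11 was at 253 and 168 CPM (0.59), and Vim, which encodes vimentin, at 323 and 248 CPM (0.38). S100a6, at 130 and 56.5 CPM, rested on few cells: it was found in 23 CKO and 40 control members, 1 CKO member held 47.4% of its UMIs, and without the top members the ratio was 0.66 (0.25 to 1.06). Naive cells gave a ratio of 1.09 for S100a6, from 23 of 652 CKO and 19 of 686 control cells. S100a4 and Lgals3, under the filter, came from 7 and 6 CKO members, and the top member held 54.2% and 72.2% of their CKO UMIs. Itgb1, a partner of Itga4, was under the filter too and went the other way, at 32.4 and 56.0 CPM (-0.79, -1.33 to -0.28). In members with 10 or more Ly6c2 UMIs its interval crossed 0 (-0.26, -0.97 to 0.40), and in the lower bands the ratio was -1.54 and -1.04.

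**Figure D4:**
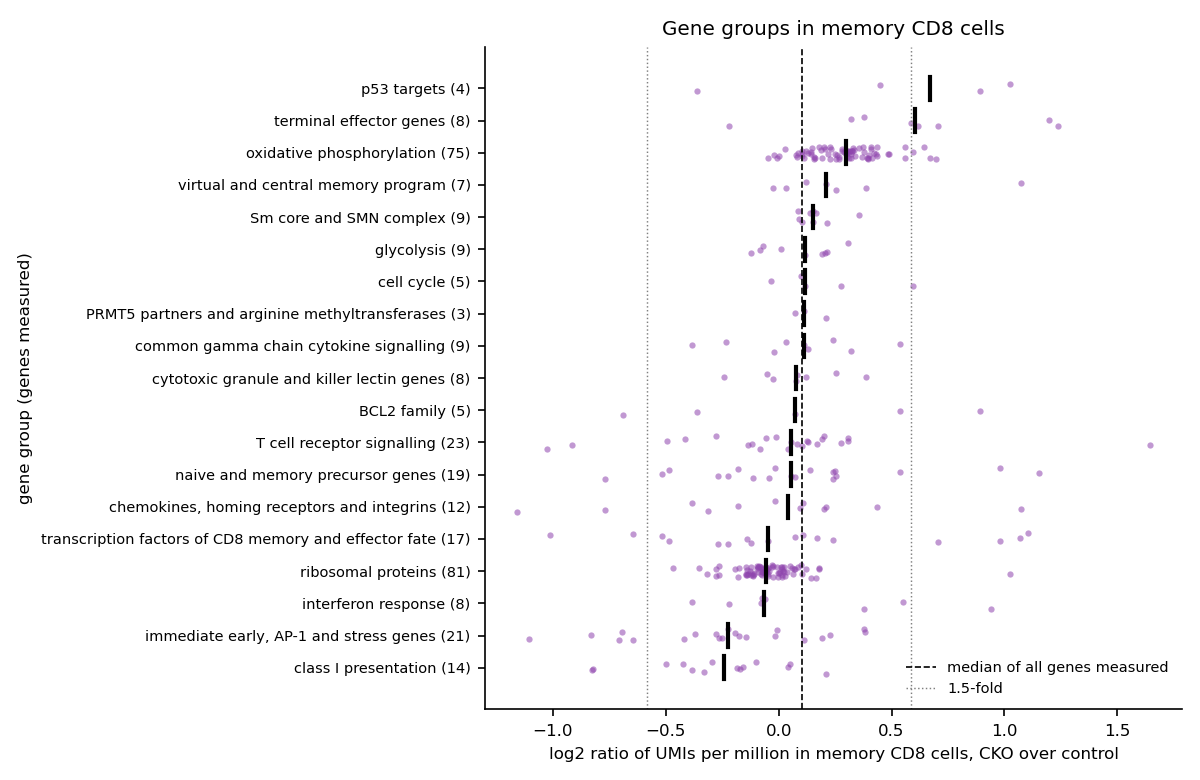
Log2 ratio in memory CD8 cells, CKO over control, for each gene of 19 groups that passed the level filter (points, spread vertically for visibility), with the group median (black bar), the median of all 2141 genes (dashed line) and 1.5-fold (dotted lines). Nuclear respiratory chain genes lie to the right of the dashed line around 0.30 and class I genes to its left around -0.24.

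Immediate early, AP-1 and stress genes were mostly lower. Of 28, 21 passed the filter, 5 higher and 16 lower, with a median of -0.23 (-0.20 in naive cells). Past 1.5-fold lower were 5 of the 21, where 1.26% of all genes were. Junb was at 730 CPM in CKO and 1298 CPM in control members (log2 -0.83, -0.94 to -0.72), against -0.39 (-0.45 to -0.33) in naive cells. The phosphatases Dusp10, at 32.4 and 69.9 CPM (-1.11), and Dusp5, at 94.8 and 153 CPM (-0.69), and Ppp1r15a, at 142 and 231 CPM (-0.71), were also lower. Fos, at 489 and 428 CPM (0.19, 0.05 to 0.33), and the early activation antigen Cd69, at 851 and 787 CPM (0.11), were not.

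Class I presentation genes were mostly lower in both gates. Of 18, 14 passed the filter, 3 higher and 11 lower, with a median of -0.24 in members and -0.21 in naive cells. H2-K1 was at 1608 CPM in CKO and 2022 CPM in control members (log2 -0.33, -0.40 to -0.26), H2-D1 at 1324 and 1626 CPM (-0.30) and B2m, the shared light chain, at 1679 and 1908 CPM (-0.18). The immunoproteasome subunit Psmb9 was at 120 and 170 CPM (-0.50), whereas Psmb8 was at 551 and 477 CPM (0.21). In effector cells H2-K1 and B2m had ratios of 0.17 and 0.14.

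Interferon response genes, with Ifit3 at 0 by the rule, had a median of -0.07 over 8 of 26, 3 higher and 5 lower. The direction depended on the cells taken. The median was 0.21 in cells with a Y-linked UMI, 0.13 when cells with Gzma or Klrg1 were let in, 0.07 under the marker gate and -0.20 in cells with Xist and no Y-linked UMI. Gbp4 was at 86.2 CPM in CKO and 44.9 CPM in control (log2 0.94, 0.56 to 1.31), and Slfn1 at 101 and 68.7 CPM (0.55).

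Cytokine receptors and their signal transducers differed little, with a median of 0.11 over 9 of 21 genes and none past 1.5-fold. Il2rg, the common γ chain, was at 240 CPM in CKO and 219 CPM in control members (log2 0.13, -0.07 to 0.33), and Jak1 at 560 and 518 CPM (0.11, -0.02 to 0.24). Stat3 was at 81.1 and 56.0 CPM (0.54, 0.17 to 0.90).

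Of 16 genes of the BCL2 family, 5 passed the filter, 3 higher and 2 lower, with Bax past 1.5-fold higher and Bcl2l11 past it lower. Bcl2, which IL-7 and IL-15 sustain in memory cells, was at 559 CPM in CKO and 385 CPM in control members (log2 0.54, 0.40 to 0.68), against 452 and 242 CPM in naive cells (0.90). Its antagonist Bcl2l11 (BIM) was at 51.2 and 82.6 CPM (-0.69, -1.12 to -0.28), but at 57.8 and 44.5 CPM in naive cells. Bax, a p53 target that permeabilises mitochondria, was at 277 and 149 CPM (0.89, 0.69 to 1.10). The p53 list holds targets of p53 and Trp53, which encodes p53 itself. Of its 20 genes 4 passed the filter, 3 of them higher, Trp53 included, with a median of 0.67 (0.59 in naive cells). Rps27l was at 190 and 93.6 CPM (1.02, 0.77 to 1.27) and Trp53 at 187 and 137 CPM. Fas, the death receptor, lay under the filter at 53.8 and 19.4 CPM (1.47, 0.95 to 1.99) and had a UMI in 33.9% of CKO and 15.3% of control members. Phlda3 had 12 UMIs in CKO and 2 in control (4.14, 1.98 to 7.34).

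Nuclear genes of the respiratory chain and its assembly were higher as a group. The mitochondrially encoded genes are not in this list. Of 97, 75 passed the filter, 72 higher and 3 lower, with a median of 0.30 (0.22 in naive cells). Past 1.5-fold higher were 4 of the 75, near the share of 4.72% of all genes. With ratios centred on the median gene 67 were higher and 8 lower. The median share of UMIs from mitochondrial genes went the other way, at 4.41% in CKO and 5.31% in control members. Cox8a was at 969 CPM in CKO and 658 CPM in control members (log2 0.56, 0.45 to 0.66) and Ndufa10 at 180 and 113 CPM (0.67, 0.42 to 0.92). Genes of glycolysis had a median of 0.12 over 9 of 15. Cytosolic ribosomal protein genes had a median of -0.06, with 25 higher and 56 lower of 81 measured.

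RNA of the PRMT5 partners and of the Sm core and SMN complex was near the median gene. Riok1, Prmt1 and Clns1a, the 3 of 12 partners and relatives that passed the filter, had log2 ratios of 0.07, 0.11 and 0.21, all with intervals across 0. The 9 of 19 Sm and SMN genes that passed were all higher, with a median of 0.15, and none was past 1.5-fold. With ratios centred on the median gene, 7 were higher and 2 lower. Of the inhibitory receptors 1 of 11 passed, Cd160, at 76.8 CPM in CKO and 47.8 CPM in control (0.68, 0.30 to 1.06). Cell cycle genes, with Mki67 at 0 by the rule, had a median of 0.12 over 5 of 20.

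Members were not uniform in these differences. Lck was higher in CKO in each band of Ly6c2, by log2 1.81, 1.75 and 1.45 in members with 2 to 3, 4 to 9 and 10 or more UMIs, and Cxcr4 was lower in each (-0.89, -1.22 and -1.17). Bcl2 was at 674 CPM in CKO and 274 CPM in control among members with 2 to 3 Ly6c2 UMIs (1.30, 1.01 to 1.60), but at 497 and 456 CPM among those with 10 or more (0.12, -0.10 to 0.34). Igfbp4 ran the opposite way, with 0.54 (0.09 to 1.0) at 2 to 3 UMIs and 2.14 (1.51 to 2.77) at 10 or more, where it was at 108 CPM in CKO and 24.6 CPM in control. Ccr7 had ratios of -0.42, -0.79 and -1.21 over the 3 bands. Id3 had 1.37, 2.04 and 0.19, the last with an interval across 0 (-0.41 to 0.76). Il7r was higher in CKO in the lower bands (0.43 and 0.40) and lower in the highest (-0.31, -0.54 to -0.07). The bands were drawn after earlier results were known, and their cells come from the same 2 libraries.

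**Figure D5:**
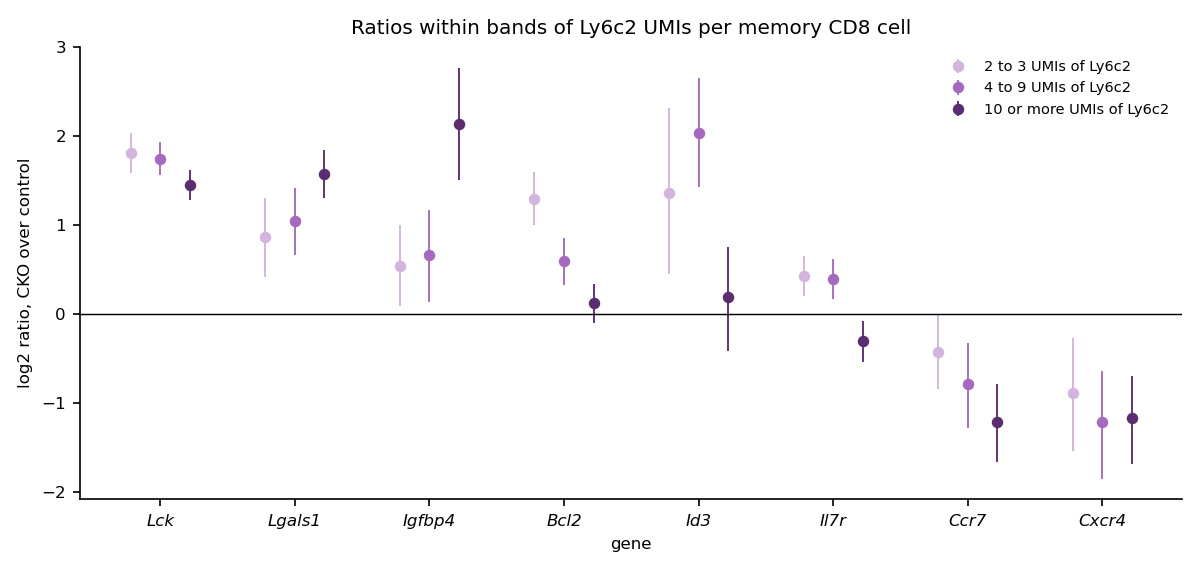
Log2 ratio, CKO over control, of 8 genes in members with 2 to 3, 4 to 9, and 10 or more Ly6c2 UMIs (light to dark), with 95% intervals. Lck stays between 1.45 and 1.81, while Bcl2 is highest in the lowest band and Igfbp4 in the highest.

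Members with a Ccl5 UMI differed from those without. The S100a6 transcripts lay almost wholly in the first, at 221 CPM in CKO and 86.5 CPM in control, against 4.07 and 7.63 CPM in members without Ccl5. Igfbp4 was at 79.4 and 50.5 CPM with Ccl5 and at 252 and 97.7 CPM without. Lck had the same ratio in both, 1.64 and 1.66. At the threshold of the rule, members with exactly 2 Ly6c2 UMIs (29 CKO and 36 control cells) had 988 and 1084 CPM of Ccl5, and cells with 1 that met every other term (23 and 51 cells) had 441 and 378 CPM.

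RNA of other cell types was measured in the same sums. Natural killer markers summed to 19.6 CPM in CKO and 30.4 CPM in control members, with 4 and 5 of 8 genes detected and Ncr1, Klra8 and Khdc1a at 0 in both. B cell markers summed to 246 and 223 CPM, with Ms4a1 at 0 in both, plasma cell markers to 16.2 and 15.4 CPM, myeloid markers to 189 and 192 CPM, with Lyz2 and Csf1r at 0, and neutrophil markers to 0 and 0.870 CPM. Erythroid and platelet markers summed to 5.12 and 0.290 CPM, γδ markers to 9.39 and 6.09 CPM and NKT markers to 1.71 and 1.74 CPM. Markers of CD4 and regulatory T cells summed to 215 and 135 CPM, of which Ikzf2, also expressed by CD8 cells, made up 136 and 64.7 CPM. The part of such RNA in the ratios above was not tested.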

How the data were processed

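Sorted splenic CD3+ T cells were sequenced in 2 libraries, 1 per group. The deposited matrices hold raw counts, as UMIs per gene and barcode, made with Cell Ranger 3.1.0 per the file headers and the submitters' processing notes, which also name CASAVA 1.8, Seurat 2.3.4 and mm10. Cells were kept and gated on raw UMIs as stated above, without clustering. No doublet caller was run, and leaving out the 6% of cells with the most UMIs was an alternative. Counts were summed per gate and library, divided by all UMIs of the sum and given as CPM with exact Poisson intervals. Ratios have exact conditional binomial intervals and shares Clopper-Pearson intervals. The calculations used Python 3.11.15, NumPy 2.4.6 and SciPy 1.17.1 and were tested on simulated counts. The genes named are the 12 highest and 12 lowest ratios with an interval off 0, the 12 highest memory over naive ratios, the defining markers and Prmt5, and up to 4 genes per list with the largest ratio and an interval off 0. Genes lower in members than in naive cells, and further genes of the lists, were picked after their values were seen. The members, gene lists and bands were chosen with earlier results of these data known. Some named items are not reported here. The 65 rows that repeat a gene symbol were left out of the gene comparisons.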

Additional observations from a re-analysis of the deposited data

Results flagged for a closer look

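Among 334 genes of the lists and named genes that were compared between members and naive CD8 cells, 150 had intervals off 0 in both. For 4 of these (2.67%) the ratios lay on opposite sides of 0. How many would do so from counting error was not tested. The difference between the gates was not tested, since each group was 1 library. Xcl1 had a log2 ratio, CKO over control, of 1.07 in members (72.6 CPM in CKO and 34.5 CPM in control) and of -2.02 in naive cells (5.57 and 22.6 CPM). Its naive value rests on 7 CKO and 11 control cells with a UMI. In members with a Ccl5 UMI the ratio was 0.049 (-0.68 to 0.73), and 7 of 13 alternatives moved it beyond its interval. Bcl2l11 had -0.69 in members (51.2 and 82.6 CPM) and 0.38 in naive cells (57.8 and 44.5 CPM). Id2 had 0.71 in members (232 and 142 CPM) and -0.17 in naive cells (195 and 219 CPM). Rps12 had -0.049 in members (5772 and 5972 CPM) and 0.10 in naive cells (4557 and 4256 CPM). Groups of 1 library gave no sample that could be set apart from the others.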

How the results depend on the processing

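No paired analysis was possible because each group has 1 library and the labels carry no replicate number. The lower memory share in CKO kept its direction in all 11 alternatives, with ratios of 0.643 under the marker gate without Ly6c2 and Il2rb, 0.374 with at least 4 Ly6c2 UMIs, 0.310 after thinning and 0.308 of all kept cells, against 0.480. Counts of genes past 1.5-fold (101 higher, 27 lower) moved by over 1.5 times under some choices: to 53 lower under a cell filter of 1000 genes and 5% mitochondrial UMIs, 216 and 81 in the fewer cells with a Y-linked UMI, 57 and 49 centred on the median gene, 164 and 131 of 3653 with totals without mitochondrial and ribosomal protein genes (median 0.02), 317 and 140 with a level of 20 CPM, 1876 and 1234 with no level filter, and 14 and 4 at 2-fold. Lower level filters admit genes with fewer UMIs. Of 312 values of the 24 genes of largest ratio, 268 stayed within the interval of the reported value, 43 moved beyond it in the same direction and 1 reversed: Rgcc was at 0.058 under the marker gate, and the cause was not tested. Xcl1 ranged from 0.05 to 2.06, S100a6 from 0.15 to 2.40 and Lgals1 from 0.40 to 1.78, while Lck stayed between 1.54 and 1.798. Prmt5 ranged from -2.78 to -1.06. The alternatives with Ccl5, with 4 Ly6c2 UMIs, with Xist and without the top member per gene were chosen after seeing the data.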
